A study of Mus musculus with 6 samples.

Results

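Cdx1, Cdx2, Hnf4a, Hnf4g, Klf4, Klf5, Gata4 and Gata6 encode transcription factors of the gut epithelium that help to set its region along the gut and its degree of differentiation. They were taken as the rows of the deposited gene table with these 8 gene names, of 54532 genes in all, and each name matched 1 row. Colon RNA of mice aged 56 days on a C57BL/6 background was measured in 3 libraries labelled wild type (WT) and 3 labelled IL10-/-, called labelled knockout here. Interleukin 10 restrains immune responses to gut contents, and mice that lack it are a widely used model of chronic colitis. The sources used here do not name the allele, the stretch of colon taken or whether each library came from its own mouse. Every p-value therefore reflects only how these libraries vary, which may be technical.

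The factors come in 4 families. The caudal homeobox proteins CDX1 and CDX2 keep the posterior gut epithelium intestinal rather than gastric. HNF4A and HNF4G are nuclear receptors that drive genes of absorptive cells and their brush border. KLF4 and KLF5 are zinc finger proteins with opposite places in the crypt: KLF4 marks differentiated surface cells and goblet cells, while KLF5 marks the dividing cells below them. GATA4 is a factor of the proximal small intestine and GATA6 is made along the whole gut. Outside the epithelium, Klf4 and Klf5 are also made in vessels and muscle, and Gata4 and Gata6 in mesenchyme.

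The libraries held 13107941 to 15797928 reads, recovered from the deposited values. Mitochondrial genes took 8.61% to 43.4% of them, with the highest share in WT library 3. Levels are in FPKM, fragments per kilobase of gene, scaled by the authors to a size for each library. The size implied by the values was not the recovered read total. It was 1.23, 0.836 and 0.940 times that total across WT 1 to 3 and 0.885, 1.07 and 1.15 times under the knockout label. Comparisons of FPKM between libraries carry this scaling. The targeted gene did not check the labels. Il10 was at 0.173 to 0.757 FPKM in the WT libraries and at 10.6 to 14.5 FPKM in those labelled knockout. That is the opposite of lost RNA, and these are reads over the whole gene. Across 12668 genes with a mean of at least 1 FPKM, limma with Benjamini-Hochberg adjustment at 0.05 called 23 genes higher and 0 lower under the knockout label, or 0.182%; an unadjusted p below 0.05 was reached by 10.2% of genes (778 with positive and 510 with negative differences), and voom on the recovered reads called 2 genes, both higher. The count of 23 was 12 without WT library 1 and 5 without WT library 3. It was 4 without knockout library 2 and 7 without knockout library 3. In whole tissue, fewer cells of a type and less RNA per cell cannot be told apart.

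None of the members was called. Of the 8, 7 passed the filter and Gata4 did not. Limma called 0 of the 7 beside the 0.182% of all tested genes, and 0 had an unadjusted p under 0.05. In 0 of the 7 did the WT values and the values labelled knockout separate without overlap, beside 16.7% of all tested genes. The differences, given as labelled knockout minus WT in log2(FPKM + 1) units, were positive for 5 members and negative for 2, with a median of 0.19, beside 0.04 over all tested genes, of which 54.1% were positive. What stood out in the values was the spread inside the WT label. In FPKM, WT library 2 was the highest of the 6 libraries for 6 of the 7 members, beside 29.9% of all tested genes. WT library 3 was the lowest for 5 of the 7, beside 28.5%. The rank of WT library 2 depends on the deposited scaling. Cdx1 had 5522 of 13107941 recovered reads in WT library 1 and 5435 of 15797928 in WT library 2. Hnf4g had 84 and 80 reads there. Klf5 had 5055 of 14235679 reads in knockout library 3 and 4117 in WT library 2. By these shares, WT library 2 was not the highest for Cdx1, Hnf4g or Klf5.

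**Figure D1:**
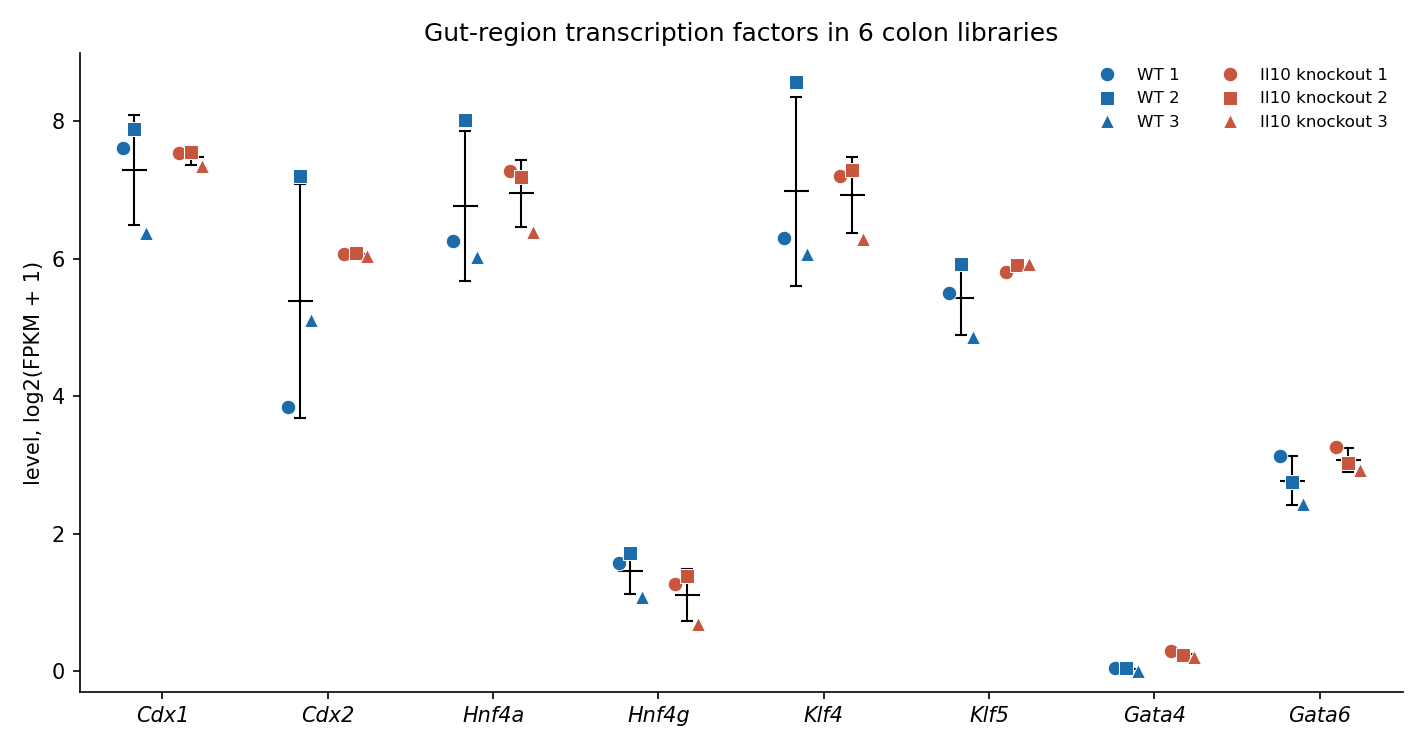
Level of each member, log2(FPKM + 1), in each of the 6 libraries; blue points are WT, red points are labelled Il10 knockout, point shape gives the library number, and black bars give the mean and SD of 3 libraries. Cdx2, Klf4 and Hnf4a spread widely within WT with WT library 2 on top. On the deposited scale, the 3 red points of Cdx2 lie between 64.7 and 66.8 FPKM.

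The promoter sequences of Cdx2, Klf4 and Hnf4a are shown because only these 3 of the 8 members had a match among the RefSeq promoters used here. They are on GRCm38.p6, each with 250 bases before and 50 after a transcription start, and cover 4 starts. The Cdx2 window is chr5:147307200-147307499 on the minus strand. The Klf4 window is chr4:55532426-55532725 on the minus strand. Hnf4a is known for a pair of alternative promoters, and its windows are chr2:163506607-163506906 for the upstream start and chr2:163546905-163547204 for the downstream start, both on the plus strand. Capitals mark matches on either strand to 4 short patterns, the GATA core GATAA, the CDX core TTTAT, the KLF box CACCC and the HNF4 element AAAGTCCA.
Cdx2: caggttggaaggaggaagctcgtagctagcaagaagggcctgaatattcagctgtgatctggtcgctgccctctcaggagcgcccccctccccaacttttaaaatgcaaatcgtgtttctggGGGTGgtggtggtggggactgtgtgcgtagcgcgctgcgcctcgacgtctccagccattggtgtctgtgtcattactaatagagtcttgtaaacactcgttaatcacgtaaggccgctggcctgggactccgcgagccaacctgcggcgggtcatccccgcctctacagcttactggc
Klf4: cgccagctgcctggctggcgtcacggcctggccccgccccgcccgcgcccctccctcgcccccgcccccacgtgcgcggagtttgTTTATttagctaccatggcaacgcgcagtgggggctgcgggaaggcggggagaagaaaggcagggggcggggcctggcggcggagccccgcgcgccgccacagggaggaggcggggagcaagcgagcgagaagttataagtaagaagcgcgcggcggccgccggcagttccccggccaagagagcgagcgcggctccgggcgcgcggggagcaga
Hnf4a upstream start: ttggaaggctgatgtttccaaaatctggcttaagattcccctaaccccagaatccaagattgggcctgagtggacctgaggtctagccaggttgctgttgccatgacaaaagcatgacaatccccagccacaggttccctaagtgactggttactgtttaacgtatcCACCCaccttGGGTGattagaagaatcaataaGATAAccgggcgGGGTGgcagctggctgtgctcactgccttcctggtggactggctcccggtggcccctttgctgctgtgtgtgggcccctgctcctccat
Hnf4a downstream start: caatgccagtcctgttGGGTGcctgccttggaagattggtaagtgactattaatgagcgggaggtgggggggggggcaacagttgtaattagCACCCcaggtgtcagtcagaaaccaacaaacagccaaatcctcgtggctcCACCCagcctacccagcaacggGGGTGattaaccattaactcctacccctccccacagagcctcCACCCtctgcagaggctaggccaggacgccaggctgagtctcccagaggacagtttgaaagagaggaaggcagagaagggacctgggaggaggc

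The Cdx2 window held 1 KLF box, at position -128 from the start. The Klf4 window held 1 CDX core, at -165, and its GC content was 74.3%, against 54.0% to 57.3% in the other windows. The upstream Hnf4a window held a GATA core at -51 and 3 KLF boxes, and the downstream one held 5 KLF boxes. None of the 4 windows held the HNF4 element. Of 32851 RefSeq promoter windows of the same length, 57.52% held a KLF box, 40.01% a CDX core, 25.41% a GATA core and 1.25% the HNF4 element. Each match is a run of letters and not a measured site.

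Cdx2, the master regulator of intestinal identity, had close means under both labels in FPKM, though not on the log2 scale, and a far wider spread in WT. The gene (ENSMUSG00000029646) lies at chr5:147300805-147307270 on the minus strand of GRCm38. It was at 13.3, 146.9 and 33.5 FPKM across WT 1 to 3 and at 66.2, 66.8 and 64.7 FPKM under the knockout label. The WT values lay on both sides of the knockout values, with 1 above and 2 below. In FPKM, the highest WT value was 11.01 times the lowest, and the highest knockout value 1.03 times the lowest. The knockout values were less close by share of recovered reads, at 1889 of 14262740, 2375 of 14651559 and 2384 of 14235679. The means were 64.6 ± 72.0 FPKM in WT and 65.9 ± 1.09 FPKM under the knockout label (SD, n = 3). On the log2 scale the difference was 0.68 (SE 0.79, 95% interval -1.20 to 2.55, limma adjusted p = 0.821). It was -0.09 without WT library 1, which turned its sign, and 1.59 without WT library 2.

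Cdx1, which overlaps with Cdx2 in the crypt and is itself a Wnt and retinoid target, spread less than Cdx2. The gene (ENSMUSG00000024619) lies at chr18:61018862-61036199 on the minus strand. It was at 195.5, 235.2 and 82.1 FPKM across WT 1 to 3 and at 184.5, 187.2 and 162.3 FPKM under the knockout label. Only WT library 3 stood apart, below all the others. The difference was 0.19 (SE 0.45, 95% interval -0.89 to 1.27, limma adjusted p = 0.921), and -0.27 without WT library 3.

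The balance of the 2 caudal genes differed in WT library 1 alone. Cdx1 was 14.65 times Cdx2 there, against 1.60 and 2.45 times in WT libraries 2 and 3 and 2.79, 2.80 and 2.51 times under the knockout label. In FPKM, WT library 1 thus had the lowest Cdx2 of all libraries beside the second highest Cdx1. The log2 ratio, here and below a difference of log2(FPKM + 1) values, averaged 1.91 ± 1.65 in WT and 1.42 ± 0.09 under the knockout label (SD, n = 3), and an exact two-sided permutation test gave p = 1, where 3 against 3 libraries cannot go below 0.1. The difference of -0.49 between labels became 0.45 without WT library 1 and -1.10 without WT library 2. Cdx4, the third caudal gene, had no reads in any library.

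Hnf4a was the main HNF4 gene of these colons. The gene (ENSMUSG00000017950) lies at chr2:163506808-163572910 on the plus strand. It was at 75.6, 259.6 and 64.0 FPKM across WT 1 to 3 and at 154.3, 144.8 and 82.6 FPKM under the knockout label. WT library 2 was above every other library, and WT libraries 1 and 3 were below every library labelled knockout. The difference was 0.18 (SE 0.59, 95% interval -1.23 to 1.59, limma adjusted p = 0.944). Leaving out WT library 1 gave -0.07, leaving out WT library 3 gave -0.19 and leaving out WT library 2 gave 0.81. The antisense gene Hnf4aos overlaps it and had 0 to 7 reads per library, against 3991 reads or more for Hnf4a; the counting is not stated to use strand, and reads in the overlap cannot be told apart.

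Hnf4g, the paralog that shares intestinal targets with Hnf4a, was near the lower limit of what was tested. The gene (ENSMUSG00000017688) lies at chr3:3508030-3658052 on the plus strand. It was at 1.98, 2.30 and 1.12 FPKM across WT 1 to 3 and at 1.42, 1.62 and 0.606 FPKM under the knockout label, on 26 to 84 reads per library. The groups overlapped, with knockout library 3 the lowest of all. The difference was -0.35 (SE 0.30, 95% interval -1.06 to 0.37, limma adjusted p = 0.747). The log2 difference was -0.57 with a pseudocount of 0.1 and -0.62 with 0.01, since a pseudocount of 1 shrinks a gene this low.

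Hnf4a exceeded Hnf4g per length 38.2, 112.7 and 57.2 times across WT 1 to 3 and 109.0, 89.4 and 136.3 times under the knockout label. The 2 groups overlapped through WT library 2. The log2 ratio was 5.31 ± 0.87 in WT and 5.84 ± 0.16 under the knockout label (SD, n = 3; exact permutation p = 0.4, or 0.9 adjusted over the 3 ratios tested). That scale shrinks the ratio, since Hnf4g is low, and puts knockout library 3, the highest by the plain ratio, lowest of its label. The difference between labels was 0.53, and 0.80 with a pseudocount of 0.01. Leaving out WT library 1 gave 0.22 and leaving out WT library 2 gave 1.02.

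Klf4, the differentiation factor of surface and goblet cells, spread most among the WT libraries after Cdx2. The gene (ENSMUSG00000003032) lies at chr4:55527143-55532466 on the minus strand. It was at 77.9, 378.0 and 66.3 FPKM across WT 1 to 3 and at 146.3, 156.2 and 77.4 FPKM under the knockout label. WT library 2 was far above the other 5, and knockout library 3 lay beside WT library 1. The difference was -0.05 (SE 0.71, 95% interval -1.74 to 1.64, limma adjusted p = 0.989). It was 0.74 without WT library 2 and 0.27 without knockout library 3, both of the opposite sign.

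Klf5, the factor of dividing crypt cells, was close to constant in FPKM under the knockout label, but not by share of recovered reads. The gene (ENSMUSG00000005148) lies at chr14:99298691-99315036 on the plus strand. It was at 44.4, 60.0 and 28.0 FPKM across WT 1 to 3 and at 54.8, 59.1 and 59.6 FPKM under the knockout label. In FPKM, WT library 2 lay just above the knockout range and WT libraries 1 and 3 below it. The knockout libraries had 3596 of 14262740, 4835 of 14651559 and 5055 of 14235679 recovered reads. By that share WT library 1, at 3724 of 13107941, was above knockout library 1. The difference was 0.45 (SE 0.34, 95% interval -0.37 to 1.26, limma adjusted p = 0.706), and 0.16 without WT library 3.

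Klf4 was 1.76, 6.30 and 2.37 times Klf5 across WT 1 to 3 and 2.67, 2.64 and 1.30 times Klf5 under the knockout label. Klf4 was thus the higher of the pair in all 6 libraries. The log2 ratio was 1.55 ± 0.96 in WT and 1.05 ± 0.59 under the knockout label (SD, n = 3; exact permutation p = 0.6, or 0.9 adjusted over the 3 ratios). The difference of -0.50 between labels became 0.05 without WT library 2 and -0.16 without knockout library 3. Of the 15 other KLF genes listed, 8 passed the filter, 5 with positive and 3 with negative differences, a median of 0.02 and 0 called; no member of that list had an unadjusted p under 0.05. The first 3 of these were Klf2, a vessel and lymphocyte factor, at -0.02, Klf3, a repressor, at 0.02 and Klf6 at -0.06. Klf6 followed Klf4 in having its highest value, 168.6 FPKM, in WT library 2, against 30.7 to 73.8 FPKM in the other 5; it was singled out after its values were seen.

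Gata6 was the GATA factor of these colons. The gene (ENSMUSG00000005836) lies at chr18:11052508-11085635 on the plus strand per the deposited table. It was at 7.79, 5.73 and 4.40 FPKM across WT 1 to 3 and at 8.63, 7.17 and 6.58 FPKM under the knockout label. The groups overlapped through WT library 1. Unlike the other members tested, the highest library in FPKM was one labelled knockout. By share of recovered reads the highest was WT library 1, at 703 of 13107941, against 609 of 14262740 in knockout library 1. The difference was 0.30 (SE 0.25, 95% interval -0.30 to 0.90, limma adjusted p = 0.736). It was 0.13 without WT library 3 and 0.48 without WT library 1. The divergent noncoding gene 1010001N08Rik overlaps its start and had 15 to 36 reads per library, against 318 to 703 for Gata6.

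Gata4, the proximal small intestine factor, was barely detected, yet its few reads fell mostly under the knockout label. The gene (ENSMUSG00000021944) lies at chr14:63198922-63271692 on the minus strand. It had 2, 2 and 0 reads across WT 1 to 3 and 11, 11 and 10 reads under the knockout label, which is 0.0317, 0.0388 and 0 FPKM against 0.223, 0.179 and 0.157 FPKM. The groups did not overlap, as for 16.6% of genes with a mean of at least 0.1 FPKM. Gata4 passes that lower filter only through the knockout label, so nothing is read from the comparison. The 32 reads against 4, pooled over the 3 libraries of each label and scaled by library size, gave a ratio of 7.57. Its exact 95% interval of 2.69 to 29.5 covers counting error only and no spread between libraries, so it is no test of the label. The 0 of WT library 3 allows up to 0.0595 FPKM at 3 reads. With no filter, the log2(FPKM + 1) difference was 0.21 (limma adjusted p = 0.455). An exact permutation test gave p = 0.1, the smallest that 3 against 3 libraries allow. Any gene whose groups do not overlap gives that value, so it adds nothing to the lack of overlap.

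Among the 7 other GATA, CDX and GATA cofactor genes listed, only the cofactor Zfpm1 passed the filter, with a difference of 0.01 (SE 0.27, limma adjusted p = 0.995). Gata3, a T cell and innate lymphoid factor singled out after its values were seen, was at 0.125 to 0.195 FPKM in the WT libraries and at 0.817 to 1.95 FPKM in those labelled knockout, under the filter.

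**Figure D2:**
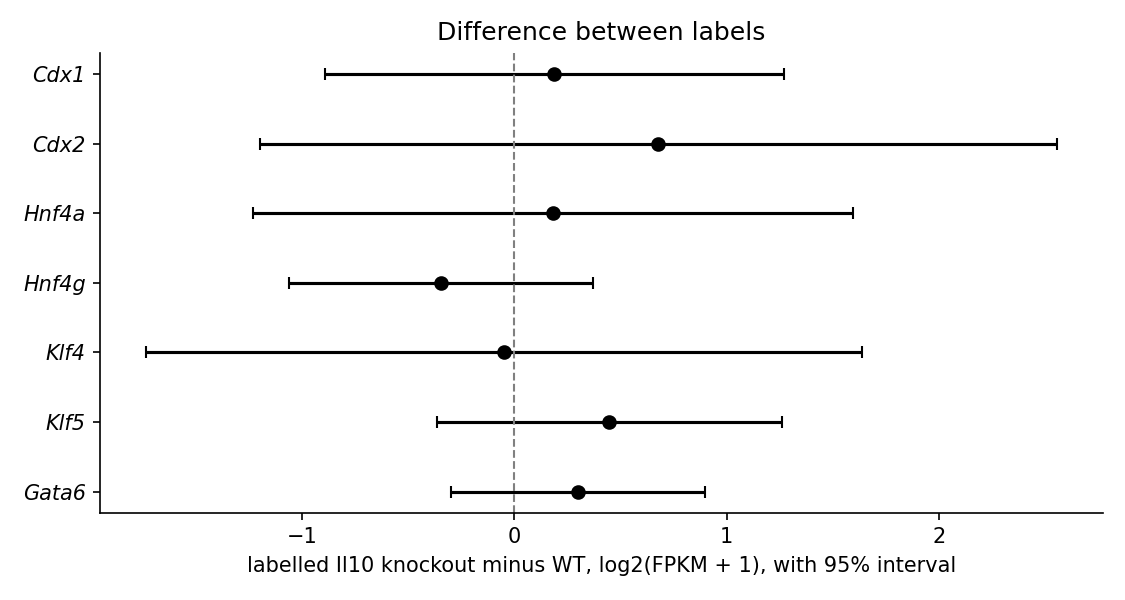
Difference in log2(FPKM + 1), labelled Il10 knockout minus WT, for the 7 members tested, with points for the limma estimate and bars for its 95% interval over 3 against 3 libraries. Every interval holds 0, and the widest is that of Cdx2, from -1.20 to 2.55.

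By mean FPKM over the 6 libraries, a scale per gene length, the order of levels was Cdx1, Klf4, Hnf4a, Cdx2, Klf5, Gata6, Hnf4g and Gata4. Cdx1 was above Klf4 in 5 libraries and below it in WT library 2. Klf4 and Hnf4a were not separated, with Klf4 above in 4 of 6 libraries. Hnf4a was above Cdx2 in all 6. Cdx2 was above Klf5 in 5 and below it in WT library 1. Klf5 exceeded Gata6 at least 5.69 times and Gata6 exceeded Hnf4g at least 2.49 times in every library.

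The spread was described on the log2 scale for each label. The median SD of the 7 members was 0.80 in WT and 0.18 under the knockout label, beside 0.48 and 0.25 over all tested genes. The WT SD was the larger for 6 of the 7, all but Hnf4g, and for 78.6% of all tested genes. Wider spread inside the WT label was thus a property of most genes in these libraries. It is described here with no test.

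General epithelial genes were set beside the members, since most members are made mainly in epithelium. All 10 of these markers passed the filter, and none was at 0 in any library. Their summed level was 6404, 13020 and 2446 FPKM across WT 1 to 3 and 13541, 12228 and 9535 FPKM under the knockout label. WT library 3 was thus the poorest in epithelial RNA and WT library 2 the richest of WT. All 10 had positive differences, beside 54.1% of all tested genes, with a median of 0.86. An unadjusted limma p under 0.05 was reached by 1, beside 10.2% of all tested genes, and 0 were called. The first 3 listed were the adhesion molecule Epcam at 0.81, E-cadherin (Cdh1) at 0.78 and keratin 8 (Krt8) at 1.21, with limma adjusted p of 0.619 to 0.748.

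Relative to that epithelial mean, the values of all 7 members averaged lower under the knockout label than in WT. For Cdx2 the difference turned to 0.15 without WT library 2, 0.23 without WT library 3 and 0.05 against the median of the epithelial list. The same mean was subtracted from every member, and it was itself higher on average under the knockout label. Any gene whose own difference was smaller than that of the mean averages lower on this scale. The median difference over all tested genes was 0.04. No share of all tested genes is given for this scale, so the count of 7 does not set the members apart. Klf4 minus the epithelial mean was -1.83, -0.93 and -1.16 across WT 1 to 3 and -1.83, -2.06 and -2.69 under the knockout label, on the log2(FPKM + 1) scale. These groups met at WT library 1 and knockout library 1, which were equal to 2 decimals. The mean difference was -0.89, with an exact permutation p of 0.1, or 0.35 adjusted over 7 members. For Hnf4a the difference was -0.65, for Cdx1 -0.65 and for Hnf4g -1.18, each with an exact permutation p of 0.2 and 0.35 adjusted. Cdx2 differed by -0.16 (p = 1), Klf5 by -0.39 and Gata6 by -0.54 (p = 0.4 and 0.467 adjusted for both; all from exact two-sided permutation tests). No member passed a test that cannot go below 0.1. With the epithelial mean as a covariate in limma, the differences were -0.33 for Cdx1, -0.18 for Cdx2, -0.60 for Hnf4a, -0.60 for Hnf4g and -1.03 for Klf4, but 0.07 for Klf5 and 0.22 for Gata6, with 0 members called.

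**Figure D3:**
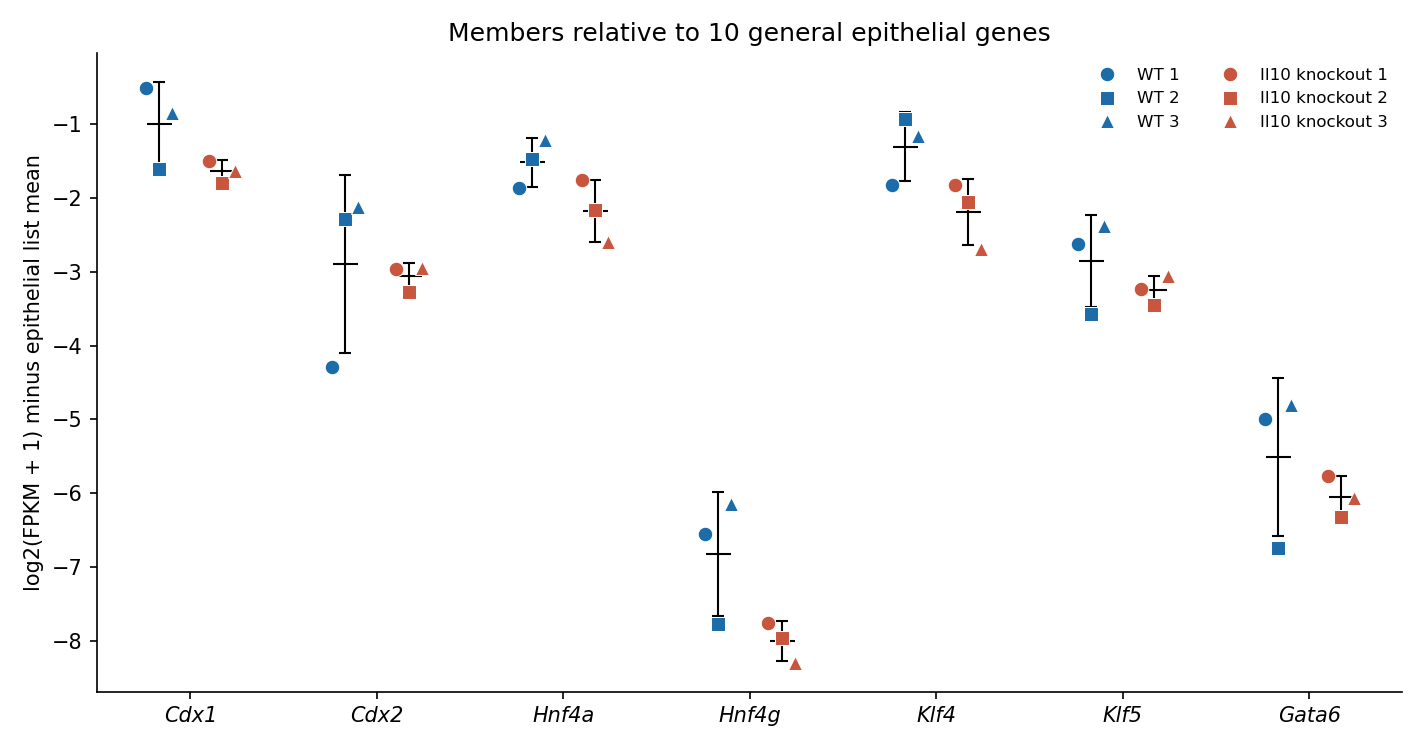
Level of each of 7 members minus the mean of 10 general epithelial genes, log2(FPKM + 1), by library; blue is WT, red is labelled Il10 knockout, shape gives the library number and black bars give the mean and SD of 3 libraries. WT library 1 is the lowest point for Cdx2, at -4.29, and the highest for Cdx1, at -0.51.

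Other cell types moved across the same libraries. Smooth muscle markers, of which 9 of 10 passed the filter, summed to 1465, 1266 and 8931 FPKM across WT 1 to 3 and 1012, 177 and 919 FPKM under the knockout label, with 9 of 9 differences negative and a median of -2.16. Enteric neuron and glia markers summed to 47.0, 32.6 and 234.7 FPKM against 37.9, 12.03 and 18.1 FPKM, with 7 of 8 negative and a median of -1.57. WT library 3, the lowest for 5 members, was thus the highest for both lists. The 6 fibroblast markers summed to 64.2 to 208.1 FPKM in WT and 56.2 to 89.0 FPKM under the knockout label (6 of 6 negative, median -0.74). Endothelial markers, 3 of 6 tested, summed to 6.99 to 10.53 and 5.27 to 10.2 FPKM (3 of 3 negative, median -0.15). Macrophage markers, 6 of 6 tested, summed to 75.0 to 165.6 and 91.8 to 182.8 FPKM (4 positive, 2 negative, median 0.22). None of these lists had a gene called by limma. An unadjusted limma p under 0.05 was reached by 2 of 9 smooth muscle, 2 of 6 fibroblast and 4 of 8 neuron and glia markers. It was reached by 0 endothelial and 0 macrophage markers, beside 10.2% of all tested genes. Of all tested genes, 54.1% had positive differences. The 6 neutrophil markers summed to 1.32 to 1.38 FPKM in WT and 559.9 to 1549 FPKM under the knockout label, with S100a9, Cxcr2 and Retnlg at 0 in all WT libraries, 6 of 6 positive and a median of 3.30; all 6 pass the filter only through the knockout label. Of them S100a8 and S100a9, the calprotectin subunits, were called, with log2 differences of 9.10 and 8.42 (limma adjusted p = 0.00226 and 0.000486). The part of these cell types in the members' values was not tested, beyond the epithelial values above and the smooth muscle covariate, which gave -0.53 for Cdx1, 0.40 for Cdx2, -0.52 for Hnf4a, -0.78 for Hnf4g, -0.96 for Klf4, -0.0046 for Klf5 and 0.09 for Gata6.

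Genes that mark position in the colon differed widely among the libraries of 1 label as well. Of the 9 listed, all passed the filter, with 4 positive and 5 negative differences, 0 called by limma and 0 with an unadjusted p under 0.05. Car1, a carbonic anhydrase abundant in the proximal mouse colon, was at 117.3, 31511 and 455.9 FPKM across WT 1 to 3 and at 5716, 544.2 and 480.9 FPKM under the knockout label. Car4, a membrane-bound carbonic anhydrase, was at 332.5, 325.8 and 142.7 FPKM against 941.9, 312.5 and 136.1 FPKM. Their log2 differences were -0.06 and 0.46.

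The posterior Hox genes and the water channels were named after their values were seen. Hoxb13, a gene of the hindmost gut, was at 58.4, 0 and 8.52 FPKM across WT 1 to 3 and at 25.8, 22.2 and 6.03 FPKM under the knockout label. Hoxd13 was at 16.9, 0.0610 and 2.06 FPKM against 0.734, 0.102 and 0 FPKM. Hoxa13 was at 15.6, 1.16 and 11.05 FPKM against 11.7, 24.2 and 21.8 FPKM. WT library 1 thus had the highest Hoxb13 and Hoxd13 of all libraries beside the lowest Cdx2, and WT library 2 the lowest Hoxa13 and Hoxb13 beside the highest Cdx2, Hnf4a and Klf4. Aqp4 was at 79.9, 3.01 and 15.6 FPKM in WT and at 111.5, 90.2 and 42.6 FPKM under the knockout label, while Aqp8 was at 230.0, 2393 and 472.1 FPKM against 513.4, 140.6 and 87.3 FPKM. WT library 2 was the lowest of the 6 for Aqp4 and the highest for Aqp8. The labels give only colon for each library, and the part of position along the colon in the members' values was not tested.

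**Figure D4:**
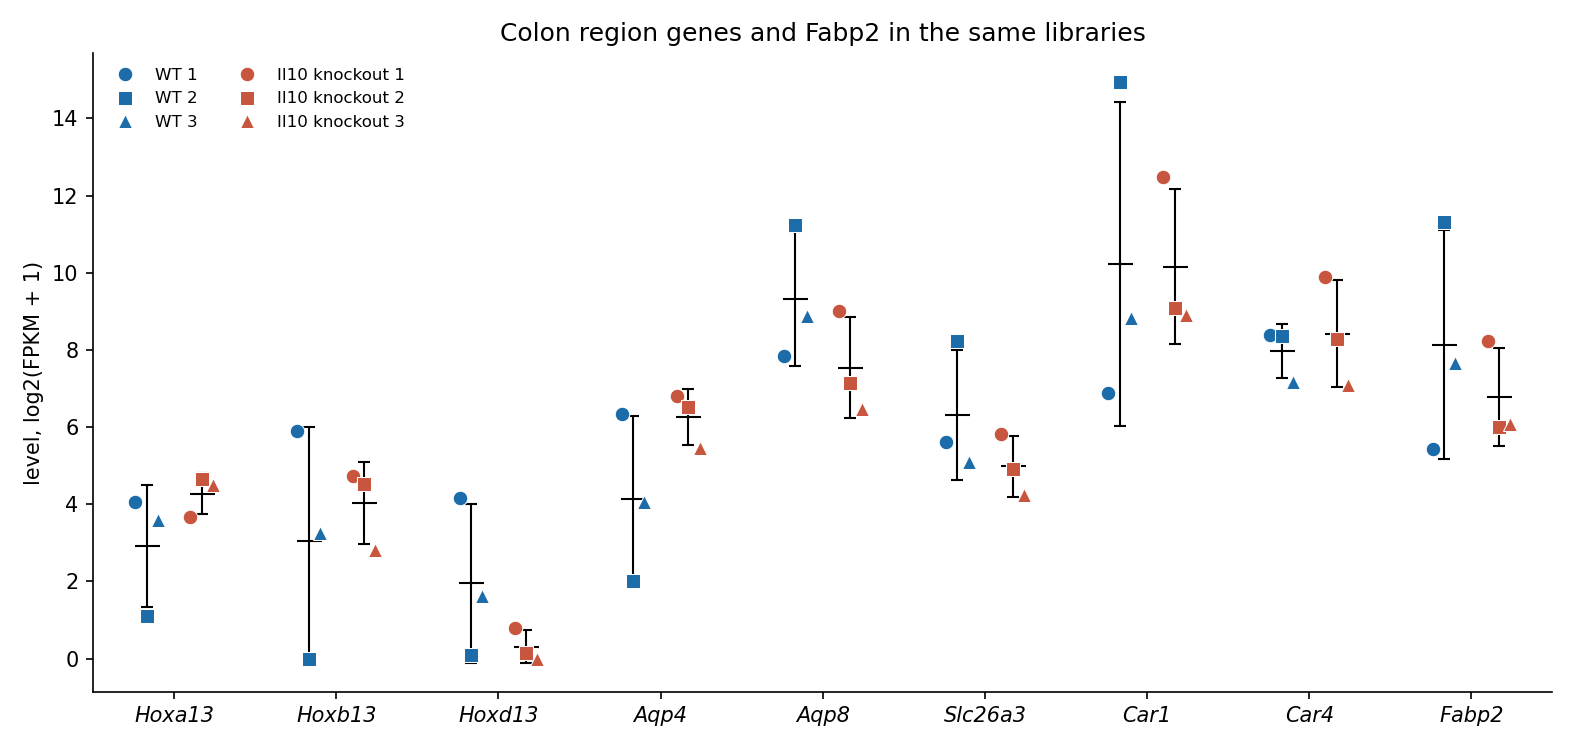
Levels of 8 colon region genes and Fabp2, log2(FPKM + 1), by library; blue is WT, red is labelled Il10 knockout, shape gives the library number and black bars give the mean and SD of 3 libraries. WT library 2 (blue squares) is lowest for Hoxa13, Hoxb13 and Aqp4 and highest for Aqp8, Slc26a3, Car1 and Fabp2.

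In FPKM, genes reported as CDX or HNF4 targets were mostly highest in WT library 2, as were Cdx1, Cdx2, Hnf4a and Hnf4g. Of 16 listed, 13 passed the filter, and 10 of these were highest in WT library 2, beside 29.9% of all tested genes. The same held for 5 of 10 general epithelial genes, 3 of 4 small intestine absorption genes tested and 8 of 23 other epithelial transcription factors tested. Whether the targets followed the factors was not tested. Differences were positive for 10 and negative for 3, with a median of 0.57, 0 called by limma and 0 with an unadjusted p under 0.05. Cdh17, the liver-intestine cadherin, was at 29.3, 238.7 and 14.5 FPKM across WT 1 to 3 and at 96.1, 139.1 and 68.5 FPKM under the knockout label. Gpa33, a surface antigen of colon epithelium, was at 192.0, 464.0 and 79.5 FPKM against 351.5, 325.1 and 216.7 FPKM. The goblet cell mucin Muc2 ran the other way, lowest in WT library 2, at 174.7, 48.2 and 373.2 FPKM in WT and 211.8, 401.2 and 509.4 FPKM under the knockout label. Their log2 differences were 1.02, 0.60 and 1.25 (limma adjusted p of 0.634 to 0.808).

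Absorption genes of the small intestine, where GATA4 acts, were mostly low. Of 12 listed, 8 were under the filter. Named after their values were seen, lactase (Lct) had at most 0.0677 FPKM in any library and Apoa4 no reads. The 4 that passed were Fabp2, Alpi, Rbp2 and Slc5a1, with 2 positive and 2 negative differences, 0 called by limma and 0 with an unadjusted p under 0.05. Fabp2, a fatty acid binding protein, was at 42.5, 2534 and 201.3 FPKM across WT 1 to 3 and at 300.4, 62.6 and 66.7 FPKM under the knockout label, again with WT library 2 on top. Alpi, the intestinal alkaline phosphatase, was at 0.398, 47.4 and 3.18 FPKM against 14.4, 4.63 and 7.09 FPKM, and so was lowest in WT library 1 and highest in WT library 2. Rbp2, a retinol binding protein, was at 13.7, 56.0 and 11.8 FPKM against 22.98, 5.82 and 8.22 FPKM.

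Stomach genes, which mark gastric fate where CDX2 is lost, stayed under the filter for 13 of 14. Gkn1, Gkn2, Muc5ac, Cldn18, Anxa10 and Atp4b, also named after their values were seen, as was Sox2, had no reads in any library. The exception was Vsig1, a junction protein of glandular stomach, at 2.66, 0.192 and 0.811 FPKM across WT 1 to 3 and 6.81, 4.69 and 4.12 FPKM under the knockout label. These groups did not overlap, as for 16.7% of tested genes. The log2 difference was 1.62 (SE 0.43), with an unadjusted limma p of 0.00725 and an adjusted p of 0.314. Sox2, the foregut counterpart of CDX2, was at 0.442 to 3.27 FPKM in WT and 0 to 0.154 FPKM under the knockout label, highest in WT library 3 with its high neuron and glia markers.

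Of 27 other epithelial transcription factors listed, 23 passed the filter, with 15 positive and 8 negative differences and a median of 0.13. Limma called 0, and 2 of the 23 had an unadjusted p under 0.05, beside 10.2% of all tested genes. Isx, an intestine-specific homeobox target of CDX2, was at 3.49, 132.8 and 9.67 FPKM across WT 1 to 3 and at 87.8, 15.9 and 13.1 FPKM under the knockout label. The 2 with a low unadjusted p, named after their values were seen, were Foxa2, a forkhead factor of secretory cells, at 14.4, 5.43 and 9.92 FPKM against 2.77, 4.24 and 3.57 FPKM, and Nr1h4, the bile acid receptor. Nr1h4 was at 24.3, 54.7 and 11.4 FPKM in WT and at 90.8, 58.0 and 65.5 FPKM under the knockout label. Neither pair of groups overlapped, as for 16.7% of all tested genes. The log2 differences were -1.19 and 1.46, with limma adjusted p of 0.354 and 0.459.

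For each of the 7 members tested, the genes most like it were those with the highest Pearson r of log2(FPKM + 1) over the 6 libraries, among genes with a mean of at least 5 FPKM. They are a description, since 6 values let many genes correlate closely. Cdx1 was followed by Tlr1 (0.996), Relch (0.992) and Man1b1 (0.987), and Cdx2 by Psmd4 (0.993), Dgcr6 (0.992) and Mea1 (0.992). Hnf4a was followed by Rap2c (0.998), Clmn (0.997) and Plekhb2 (0.996), and Klf4 by Rnd3 (0.999), Rb1 (0.995) and Frmd8 (0.995). An r of at least 0.99 was reached by 24 genes with Hnf4a and 20 with Klf4, and by 0 with Hnf4g and Gata6. Klf5 was followed by M6pr (0.996), Aifm1 (0.995) and Acsl5 (0.994). Hnf4g was followed by Tmem185b (0.984), Eea1 (0.962) and Ubr4 (0.948). Gata6 was followed by Gm8186 (0.985), an immunoglobulin kappa variable segment (0.984) and Ms4a12 (0.983), all 3 highest in WT library 1 and knockout library 1. No other member stood among the 3 nearest genes of any member.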

How the data were processed

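The authors deposited 1 table of FPKM values per gene with coordinates and lengths, per the file headers. Bowtie 0.12.2 and the builds hg38 and mm8 appear, with no role, in the submitters' processing notes; the sources used here name no counting tool or strand setting. Of 54409 identifiers found in GENCODE mouse release M21 (GRCm38), 98.3% had identical coordinates; Gata6 began elsewhere there. Reads were recovered from value times length, which fell on whole steps of a size set by each library (tolerance 0.01) for 100% of values above 0. No library pair was a repeat (chi-square per gene of 43.6 or more). Groups came from sample titles.

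Genes with a mean of at least 1 FPKM were tested across all genes as log2(FPKM + 1) with limma 3.58.1 (mean trend, no block, Benjamini-Hochberg) in R 4.3.3, tested on simulated data. That scale understates changes of low genes. Ratios and values against the epithelial mean used exact permutation tests over libraries in scipy 1.17.1. The planned Gata6 to Gata4 ratio was not computed, since Gata4 was under the filter. Named list genes are the first 3 tested of each list in written order, plus any called; others are said to be chosen after their values were seen, and some items are not reported here. Of the cell type lists, only called genes, epithelial genes and markers at 0 are named. Members and lists were chosen with earlier results of these data known. Alternatives covered pseudocounts, filters, scalings, eBayes settings, library weights, covariates, voom, a replicate block and left-out libraries. Sequences are RefSeq's (GRCm38.p6).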

Additional observations from a re-analysis of the deposited data

How the results depend on the processing

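No member was called under any of the 21 alternatives; the smallest adjusted p was 0.0741, for Cdx2 with a weight per library (log2 difference 1.86). Signs did change, and the cause was not tested. With quantile normalization Cdx1 was at -0.14 and Hnf4a at -0.14. With the epithelial covariate Cdx1 was at -0.33, Cdx2 at -0.18 and Hnf4a at -0.60, and with the smooth muscle covariate Cdx1 was at -0.53, Hnf4a at -0.52 and Klf5 at -0.0046. Klf4 was at 0.06 with TPM and 0.58 with a weight per library. Leaving out each library gave -0.27 to 0.48 for Cdx1, -0.094 to 1.59 for Cdx2, -0.19 to 0.81 for Hnf4a and -0.50 to 0.74 for Klf4. Hnf4g and Gata6 kept their sign in every alternative run. TPM moved the median of all genes by 0.11 and scaling to reads outside mitochondria by -0.12; relative to that median Cdx2 was at 0.64 as deposited, 0.66 and 0.63.

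The 23 called genes became 9 with a pseudocount of 0.01, 4 with no filter, 46 with TPM, 331 with a weight per library, 1 with the smooth muscle covariate and 2 with voom, and 4 to 29 with a library left out. With the replicate block the count was 7. The labels do not say what same-numbered libraries share beyond the number. The correlations of their deviations from group means were -0.149, 0.18 and 0.396, which cannot settle it. Ratios and values against the epithelial mean moved by less than 1 SD (pooled over both groups) in each alternative they were recomputed under, but some signs turned. The caudal ratio difference ran from -1.10 to 0.445 and that of Klf4 to Klf5 from -0.87 to 0.047 with a library left out. Cdx2 against the epithelial mean ran from -0.85 to 0.23 so, and was 0.045 against the list median. Depth limits Gata4 and Hnf4g.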
